A study of Mus musculus with 11 samples.

Results

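The genes of this report were 7 of the 32285 genes counted: *Hmgcs1*, *Idi1*, *Fdft1*, *Sqle* and *Cyp51*, which encode enzymes of cholesterol synthesis, and *Srebf2* and *Insig1*, which regulate synthesis and uptake. They were taken by name as one pathway, and were chosen with earlier results of these data known. Single-cell RNA sequencing (10x Genomics 3′ libraries) had been run on right brain tissue of 11 mice, with 1 library per mouse, to ask how loss of Lrg1, a secreted leucine-rich glycoprotein, changes the cells of the brain after ischemia and reperfusion. The 4 groups were sham-operated wild type (sham + WT, n = 3), sham-operated Lrg1 knockout (sham + Lrg1-/-, n = 3), wild type after middle cerebral artery occlusion with reperfusion (MCAO/R + WT, n = 2) and Lrg1 knockout after the same occlusion (MCAO/R + Lrg1-/-, n = 3). Wild-type mice were male C57BL/6. The knockout was conventional, in every cell of the body, removed the sequence from the first exon to the stop codon in the second, and was kept on a C57BL/6 background that the methods name as the N substrain in one place and the J substrain in another. The methods give the knockout mice as older than the wild-type mice, so genotype and age cannot be told apart. The time of reperfusion of the sequenced mice was not given clearly in the sources used here.

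Cholesterol hardly crosses the blood-brain barrier, so the brain makes its own. In the adult brain astrocytes export cholesterol on apolipoprotein E to other cells, and oligodendrocytes make large amounts for myelin, the lipid-rich sheath around axons. The pathway is steered by SREBP2, the product of *Srebf2*: INSIG1 holds SREBP2 and its escort SCAP in the endoplasmic reticulum while sterol is plentiful, and when sterol runs low SREBP2 is cut free, enters the nucleus and raises transcription of the synthesis enzymes, of *Insig1* and of *Srebf2* itself. HMGCS1 makes HMG-CoA for the mevalonate pathway, IDI1 isomerises the resulting isoprenoid unit, FDFT1 joins farnesyl units to squalene, SQLE oxidises squalene, and CYP51 removes a methyl group from lanosterol.

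In the mouse annotation (GRCm38) *Hmgcs1* lies at chr13:119690379-119708260 on the plus strand, *Idi1* at chr13:8885501-8892451 (plus), *Fdft1* at chr14:63145150-63179578 (minus), *Sqle* at chr15:59315077-59331192 (plus), *Cyp51* at chr5:4081145-4104746 (minus), *Srebf2* at chr15:82147181-82205379 (plus) and *Insig1* at chr5:28071363-28078662 (plus). Genes on the other strand overlap *Hmgcs1* (*Gm48342*), *Idi1* (*Gm48574*), *Fdft1* (*Ctsb*) and *Cyp51* (*Akap9*), and *Gm49502* and *Mir33* overlap *Srebf2* on the same strand. The strand setting of the counting was not given in the sources used here, so the counts of these 5 members may hold reads of the overlapping genes. A RefSeq promoter sequence (GRCm38.p6, 250 bases before to 50 bases after the start of transcription) was found for 5 of the 7 members, namely *Hmgcs1*, *Insig1*, *Srebf2*, *Cyp51* and *Idi1*, and both strands were searched for 3 motifs. The sterol regulatory element TCACNCCAC, where SREBP2 binds, was written in 1 of these 5 promoters, that of *Hmgcs1*, and in 1.24% of all 32851 promoters in the table. CCAAT, the site of NF-Y, was in all 5 and in 37.4% of all promoters, and the GC box GGGCGG, a site of Sp1, was in all 5 and in 35.7%. In the *Hmgcs1* promoter the element overlapped no match of the other 2 motifs. The element of *Hmgcs1* starts 137 bases before the start of transcription. It is shown with the bases around it, because *Hmgcs1* had the largest fall of the members in oligodendrocytes of wild-type mice after MCAO/R, and the CCAAT matches of the regulators *Insig1* and *Srebf2* are shown for comparison, 216 and 135 bases before their starts. Capitals mark the matched motif, which for *Insig1* and *Srebf2* reads ATTGG because CCAAT lies on the other strand. A match is a description of letters and not evidence of binding.
Hmgcs1, chr13:119690154-119690282, plus strand, sterol regulatory element: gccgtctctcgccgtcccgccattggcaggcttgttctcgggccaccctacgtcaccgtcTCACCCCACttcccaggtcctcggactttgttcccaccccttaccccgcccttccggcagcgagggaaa
Insig1, chr5:28071171-28071225, plus strand, CCAAT on the minus strand: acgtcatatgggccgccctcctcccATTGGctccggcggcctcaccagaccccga
Srebf2, chr15:82147109-82147163, plus strand, CCAAT on the minus strand: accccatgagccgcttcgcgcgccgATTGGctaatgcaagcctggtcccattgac

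The values are UMIs (unique molecular identifiers, 1 per captured RNA molecule) summed over the cells of a type in a library. Libraries held 37159497 to 171813031 UMIs. Of 155804 deposited barcodes, 132437 passed the limits on cells, 7946 were left out as doublets and 95245 were given 1 of 18 cell type names from marker genes. *Lrg1* checked the labels: it had 192 to 658 UMIs in the sham + WT libraries, 17799 and 16183 in MCAO/R + WT, none in 5 of the 6 Lrg1-/- libraries and 1 UMI in the other. Between libraries 2809 barcodes occurred more than once, 14 to 180 per pair. The Lrg1-/- libraries stood apart in RNA of other cells: 4 haemoglobin genes summed to 7360 to 56000 CPM (UMIs per 1000000 UMIs) in their oligodendrocytes, astrocytes and neurons, against 9.38 to 43.8 CPM in the wild-type libraries, and 5 choroid plexus genes were raised too, in astrocytes to 5740 to 41000 CPM against 254 to 676 CPM. Median UMIs per cell were also lower in MCAO/R + Lrg1-/- than in MCAO/R + WT in all 3 cell types (oligodendrocytes 3489 to 6460 against 13482.5 to 15900.5), while after sham surgery the ranges overlapped in each (oligodendrocytes 5860 to 7645.5 against 5928 to 15476). The median mitochondrial share of a cell's UMIs was higher in each Lrg1-/- library than in each WT library of the same surgery in the 3 cell types. In 4 of the 6 Lrg1-/- libraries, all 3 of sham + Lrg1-/- and MCAO/R + Lrg1-/- replicate 1, the number of deposited barcodes was a multiple of 50 and the lowest UMI count of a barcode 551 to 770, against 500 in each of the other 7 libraries. The part of these differences in the results was not tested. In the wild-type comparison of MCAO/R with sham the haemoglobin genes summed to at most 43.8 CPM in every library of these 3 cell types.

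Changes were tested per cell type by edgeR's quasi-likelihood test on the summed UMIs, with all groups in 1 fit. A change counted as called where the p-value, adjusted by the method of Benjamini and Hochberg over all genes of the cell type, was below 0.05 and the fold change exceeded 0.25 on the natural-log scale in either direction. Values are TMM-adjusted CPM per library, in the order of replicates 1, 2 and 3 for sham + WT, 1 and 2 for MCAO/R + WT, and 1, 2 and 5 for both Lrg1-/- groups. Differences are log2 fold changes ± standard error. The standard error was taken as the size of the log2 fold change divided by the square root of the quasi-likelihood F statistic. The 4 groups enter several comparisons each, so comparisons that share a group are not independent. Each library is 1 mouse, so a p-value covers the spread between mice.

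In sham + WT mice each of the 7 genes had its highest mean in a cell type of the neural lineage and its lowest in microglial cells. The levels that follow are mean CPM ± SD over 3 mice, on plain library totals, and are compared between cell types for 1 gene at a time. *Hmgcs1* stood at 579 ± 9.03 CPM in oligodendrocytes, against 275 ± 56.0 in neural progenitor cells, 252 ± 10.6 in neurons, 224 ± 20.2 in astrocytes and 212 ± 49.7 in choroid plexus epithelial cells. The oligodendrocyte level was apart from all others, while neighbours among the following 4 types did not differ beyond their spread. *Cyp51* had the same order at the top, with 176 ± 3.64 CPM in oligodendrocytes and 102 ± 31.5 in neural progenitor cells. *Idi1* (151 ± 6.32) and *Insig1* (140.3 ± 24.2) also had their highest means in oligodendrocytes, within the spread of neural progenitor cells (134 ± 12.6 and 124 ± 25.2). *Fdft1* (119.5 ± 4.18) and *Srebf2* (162 ± 18.5) had their highest means in neural progenitor cells, *Fdft1* within the spread of astrocytes (113 ± 6.58) and *Srebf2* within that of B cells (153 ± 31.1) and neurons (149.8 ± 15.7). *Sqle* was highest in astrocytes, at 94.1 ± 3.51 CPM, followed by ciliated ependymal cells at 86.4 ± 2.68. Microglial cells had the lowest mean of the 15 cell types with 3 sham + WT libraries for each of the 7 genes, from 2.29 ± 0.125 CPM for *Sqle* to 31.5 ± 1.11 for *Srebf2*. Only for *Srebf2* was this level apart from every other type. For the other genes it lay within the spread of another type, such as macrophages for *Hmgcs1* (23.9 ± 1.14) and *Fdft1* (6.14 ± 1.13).

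**Figure D1:**
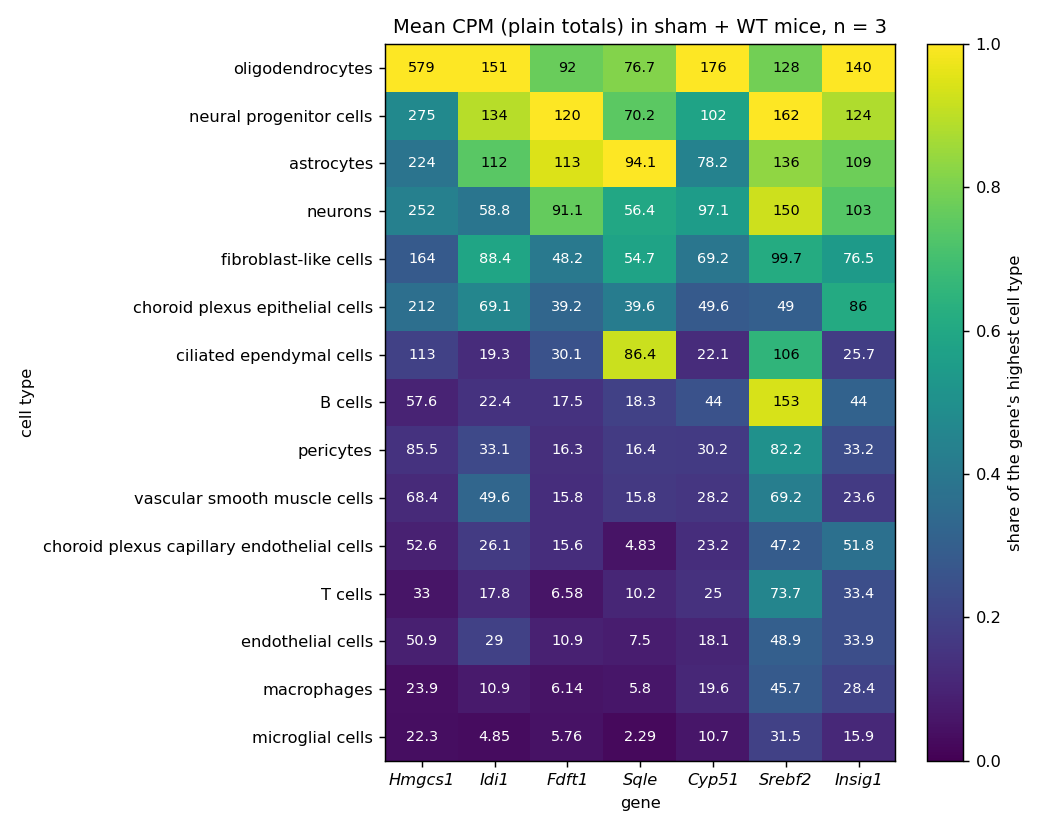
Mean CPM on plain totals of the 7 genes (columns) in the 15 cell types (rows) with 3 sham + WT libraries, with the value printed in each cell and the colour giving it as a share of the gene's highest cell type. Oligodendrocytes lead for *Hmgcs1* at 579 CPM and *Cyp51* at 176 CPM, and microglial cells form the lowest row.

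In oligodendrocytes, MCAO/R in wild-type mice went with a fall of nearly the whole gene set. The cells were 12927 oligodendrocyte-like cells, named from markers that include *Mbp*, *Mog*, *Mag*, *Mobp*, *Ermn* and *Cldn11*, and the question was what the injury does to the pathway when Lrg1 is present. *Hmgcs1*, the enzyme of HMG-CoA synthesis, had 572, 582 and 597 CPM in sham + WT and 129 and 168 CPM in MCAO/R + WT. *Cyp51*, the lanosterol demethylase, had 173, 182.6 and 176 CPM in sham + WT and 53.7 and 50.7 CPM in MCAO/R + WT. *Idi1*, the isoprenoid isomerase, had 154, 149.7 and 151 CPM in sham + WT and 44.7 and 48.01 CPM in MCAO/R + WT. In each of these 3 genes the replicates of a group lay close together and the groups were far apart. *Fdft1*, the squalene synthase, had 92.0, 91.3 and 94.7 CPM in sham + WT and 34.5 and 43.5 CPM in MCAO/R + WT. *Sqle*, the squalene epoxidase, had 76.6, 77.7 and 77.5 CPM in sham + WT and 50.2 and 42.8 CPM in MCAO/R + WT. Both again fell without overlap, *Sqle* by the smaller amount. The regulator *Srebf2* had 123, 126 and 137 CPM in sham + WT and 74.2 and 76.96 CPM in MCAO/R + WT. *Insig1*, the retention factor of SREBP2, had 164, 129.9 and 128 CPM in sham + WT and 88.7 and 121 CPM in MCAO/R + WT. For *Insig1* the groups did not overlap either, but 1 MCAO/R + WT library came close to the sham + WT values. Of all genes tested 28.5% were lower without overlap in this comparison.

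The fall of *Hmgcs1* was -1.97 ± 0.20, adjusted p = 2.57e-05, a 3.93-fold reduction. *Cyp51* changed by -1.76 ± 0.20, adjusted p = 6.15e-05, and *Idi1* by -1.71 ± 0.22, adjusted p = 0.000122. *Fdft1* changed by -1.24 ± 0.14, adjusted p = 4.47e-05, *Srebf2* by -0.77 ± 0.13, adjusted p = 0.000914 and *Sqle* by -0.73 ± 0.24, adjusted p = 0.0426. *Insig1*, at -0.43 ± 0.17, adjusted p = 0.0921, did not pass the test. Thus 6 of 7 members were called lower and none higher, where 11.3% of the 15935 genes tested in oligodendrocytes were called lower. The median over the 7 members was -1.24, and over all genes tested -0.005. The 5 calls of *Hmgcs1*, *Cyp51*, *Idi1*, *Fdft1* and *Srebf2* held with each of the 11 libraries left out in turn, whereas *Sqle* held in 4 of 11 and was lost without any 1 of the sham + WT or MCAO/R + WT libraries, sham + Lrg1-/- replicate 1 or MCAO/R + Lrg1-/- replicate 2. Of these 6 oligodendrocyte markers, 2 (*Ermn* and *Mog*) were called lower in the same comparison, with a median of -0.425 over the 6. The 8 neuronal markers, none of them at 0, summed to 99.1 to 126 CPM in sham + WT oligodendrocytes and to 431 to 510 CPM in MCAO/R + WT, and their part in the result was not tested.

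**Figure D2:**
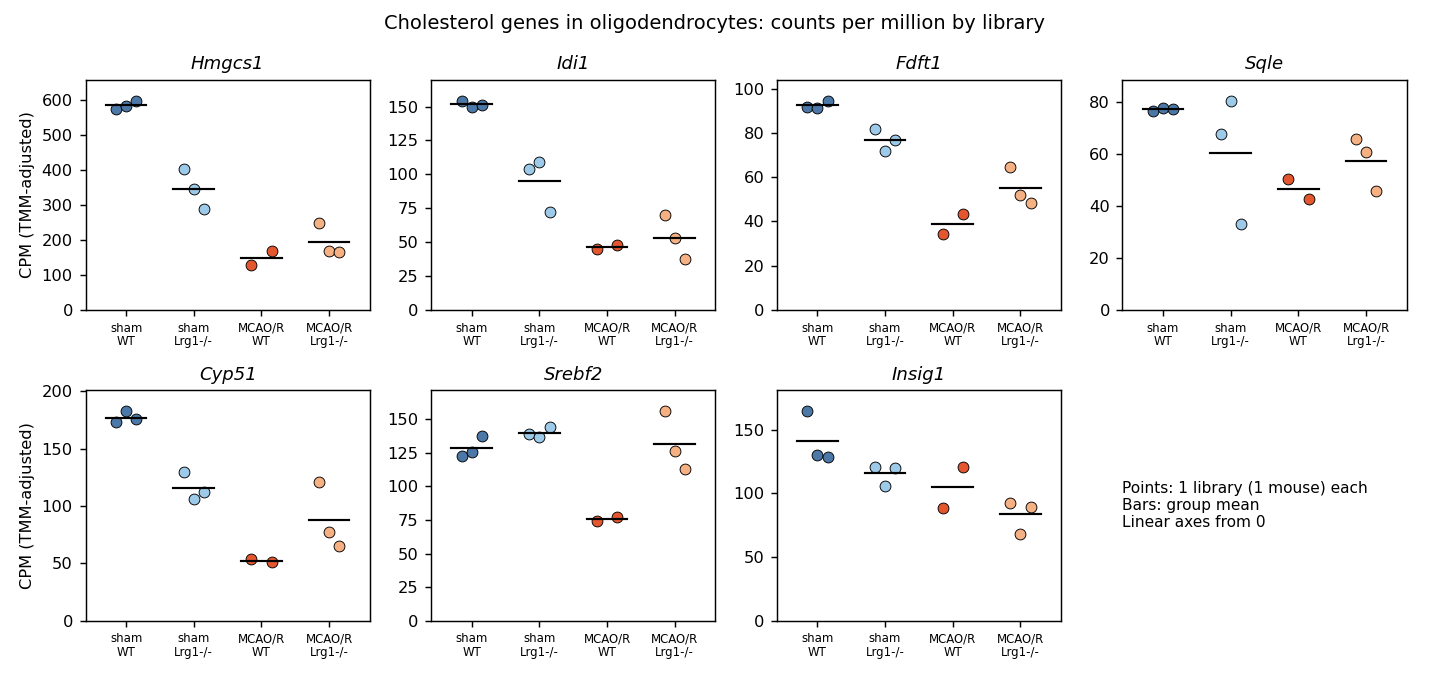
TMM-adjusted CPM of each of the 7 genes in oligodendrocytes (linear vertical axes from 0), 1 point per library and bars at the group mean, for the 4 groups. The sham + WT points lie above the MCAO/R + WT points for all 7 genes, and for *Srebf2* the MCAO/R + WT libraries at 74.2 and 77.0 CPM lie below every other library.

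In Lrg1-/- mice 3 of the 7 members fell in oligodendrocytes with MCAO/R. *Hmgcs1* had 403, 345 and 288 CPM in sham + Lrg1-/- and 248, 168 and 164 CPM in MCAO/R + Lrg1-/-. *Idi1* had 104, 109 and 72.3 CPM in sham + Lrg1-/- and 69.7, 53.2 and 37.3 CPM in MCAO/R + Lrg1-/-. *Fdft1* had 81.8, 71.8 and 76.95 CPM in sham + Lrg1-/- and 64.6, 52.1 and 48.5 CPM in MCAO/R + Lrg1-/-. In these 3 genes the groups did not overlap, and the lowest sham library lay close to the highest MCAO/R library. *Cyp51* had 129.8, 106 and 112 CPM in sham + Lrg1-/- and 121, 77.2 and 65.5 CPM in MCAO/R + Lrg1-/-. *Srebf2* had 139, 137 and 145 CPM in sham + Lrg1-/- and 156, 126 and 113 CPM in MCAO/R + Lrg1-/-. *Sqle* had 67.8, 80.5 and 33.1 CPM in sham + Lrg1-/- and 65.7, 60.6 and 45.6 CPM in MCAO/R + Lrg1-/-. For these 3 genes the groups overlapped. *Insig1* had 121, 106 and 120.0 CPM in sham + Lrg1-/- and 92.8, 68.1 and 89.6 CPM in MCAO/R + Lrg1-/-, without overlap. Thus 4 of 7 were apart, beside 14.9% of all genes tested. The changes called were those of *Idi1* (-0.89 ± 0.20, adjusted p = 0.0131), *Hmgcs1* (-0.85 ± 0.17, adjusted p = 0.00812) and *Fdft1* (-0.50 ± 0.13, adjusted p = 0.0247), 3 of 7 lower beside 7.33% of all genes tested. *Insig1* (-0.48 ± 0.16, adjusted p = 0.07), *Cyp51* (-0.44 ± 0.18, adjusted p = 0.133), *Sqle* (-0.13 ± 0.23, adjusted p = 0.763) and *Srebf2* (-0.10 ± 0.12, adjusted p = 0.635) did not pass. Without sham + Lrg1-/- replicate 1 none of the 7 was called, and without MCAO/R + Lrg1-/- replicate 2 or 5, or sham + Lrg1-/- replicate 2 or 5, 2 were. Of the 6 oligodendrocyte markers 2 (*Mbp* and *Mog*) were called lower here, with a median of -0.19. The 8 neuronal markers summed to 100 to 117 CPM in sham + Lrg1-/- and 281 to 329 CPM in MCAO/R + Lrg1-/-. The median mitochondrial share was 5.64 to 6.58% and 7.16 to 9.22% in these groups. The part of these in the result was not tested.

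The difference between the genotypes in the response to MCAO/R was tested as the interaction of genotype and surgery, where a positive value means a smaller fall, or a larger rise, in Lrg1-/- mice. *Cyp51* (1.32 ± 0.27, adjusted p = 0.0291) and *Hmgcs1* (1.12 ± 0.26, adjusted p = 0.0483) were called, beside 0.747% of the 15935 genes called in that direction. *Idi1* (0.82 ± 0.29, adjusted p = 0.174), *Fdft1* (0.74 ± 0.19, adjusted p = 0.0684), *Srebf2* (0.67 ± 0.17, adjusted p = 0.0705) and *Sqle* (0.60 ± 0.33, adjusted p = 0.393) had positive values that did not pass, and *Insig1* was at -0.05 ± 0.23, adjusted p = 0.966. The median of the members was 0.74, against -0.013 over all genes tested. Both calls stood close to the threshold. The count was 0 of 7 without any 1 of the 6 sham libraries or MCAO/R + WT replicate 2, 1 without MCAO/R + WT replicate 1 or MCAO/R + Lrg1-/- replicate 2, and 5 without MCAO/R + Lrg1-/- replicate 5. It was also 0 after each cell was thinned to 1000 UMIs, where the median of the members was 0.90.

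Between genotypes after MCAO/R, 3 members were higher in oligodendrocytes of Lrg1-/- mice and none lower, with the library values given above. *Srebf2* was 1.73-fold higher (0.79 ± 0.13, adjusted p = 0.00123), *Cyp51* 1.65-fold (0.72 ± 0.20, adjusted p = 0.0185) and *Fdft1* 1.39-fold (0.47 ± 0.14, adjusted p = 0.0225), and in each the 3 Lrg1-/- libraries lay above both WT libraries, as did 25% of all genes tested. *Hmgcs1* (0.37 ± 0.19, adjusted p = 0.161), *Sqle* (0.28 ± 0.24, adjusted p = 0.388), *Idi1* (0.16 ± 0.21, adjusted p = 0.594) and *Insig1* (-0.33 ± 0.17, adjusted p = 0.152) overlapped and did not pass. In this comparison 14.2% of the genes tested were called higher and 14.4% lower. Only *Srebf2* was called with each library left out in turn, and it was the only member called without MCAO/R + WT replicate 1. *Fdft1* was lost without that library or MCAO/R + Lrg1-/- replicate 1, and *Cyp51* without either MCAO/R + WT library. Of the 6 oligodendrocyte markers listed above 3 were called lower and 1 higher here, with a median of -0.26, opposite in sign to the median of the members at 0.37. The 10 genes induced by dissociation summed to 3230 to 3810 CPM in MCAO/R + WT oligodendrocytes and to 3630 to 6450 CPM in MCAO/R + Lrg1-/-, and after thinning each cell to 1000 UMIs 1 of the 7 members was called, with a median of 0.17. The median mitochondrial share of these cells was 3.5 to 3.96% in MCAO/R + WT and 7.16 to 9.22% in MCAO/R + Lrg1-/-, and 6 microglial markers summed to 172 to 248 CPM against 548 to 1330 CPM. The part of these in the result was not tested.

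The oligodendrocytes came from 2 clusters, and different ones held most of them in different groups. Cluster 6 had median depths of 11795 to 19076 UMIs per cell in its parts and cluster 9 of 2085 to 4225. Cluster 9 held 7.7 to 42.1% of the oligodendrocytes of a sham + WT library, 10.8 to 20.2% in MCAO/R + WT, 23.9 to 46.0% in sham + Lrg1-/- and 42.5 to 72.6% in MCAO/R + Lrg1-/-. Within cluster 6, part 6.1 held 61.3% of all sham + WT oligodendrocytes and part 6.0 held 74.5% of those of MCAO/R + WT, so that the 2 groups lay mostly in different parts. With cluster 6 alone, an alternative chosen after seeing the data, 6 of the 7 members were called higher in MCAO/R + Lrg1-/- than in MCAO/R + WT, all but *Insig1* at -0.07, beside 12.4% of the 15357 genes tested there. *Cyp51* was then at 0.94, *Srebf2* at 0.80, *Hmgcs1* at 0.70, *Fdft1* at 0.69, *Sqle* at 0.60 and *Idi1* at 0.47, and 5 members passed the interaction test, beside 3.34% of genes. The fall in wild-type mice stood in cluster 6 too, with 7 of 7 called lower beside 14.2% of genes.

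In sham-operated mice the genotypes differed in the other direction. *Hmgcs1* (-0.75 ± 0.17, adjusted p = 0.0163), *Idi1* (-0.66 ± 0.19, adjusted p = 0.0452) and *Cyp51* (-0.60 ± 0.18, adjusted p = 0.0478) were called lower in oligodendrocytes of sham + Lrg1-/- than of sham + WT, 3 of 7 members beside 5.42% of all genes tested. In each of them all 3 Lrg1-/- libraries lay below all 3 WT libraries. *Sqle* (-0.32 ± 0.22, adjusted p = 0.378) and *Srebf2* (0.12 ± 0.12, adjusted p = 0.519) overlapped, while *Insig1* (-0.28 ± 0.16, adjusted p = 0.256) and *Fdft1* (-0.27 ± 0.13, adjusted p = 0.188) did not overlap but did not pass. Thus 5 of 7 were lower without overlap, beside 20.2% of all genes tested. The adjusted p-values of *Idi1* and *Cyp51* lay near the threshold. No member was called without sham + WT replicate 2 or 3 or sham + Lrg1-/- replicate 2 or 5, and 1 was called without sham + WT replicate 1 or sham + Lrg1-/- replicate 1. Of the same oligodendrocyte markers 3 of 6 were lower here, with a median of -0.44, and the genes induced by dissociation summed to 2090 to 3630 CPM in sham + WT and 4620 to 7450 CPM in sham + Lrg1-/-. The mitochondrial share was 3.54 to 3.64% in sham + WT and 5.64 to 6.58% in sham + Lrg1-/-, and with cells limited to mitochondrial UMIs under 10% *Hmgcs1* alone of the 3 was called.

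**Figure D3:**
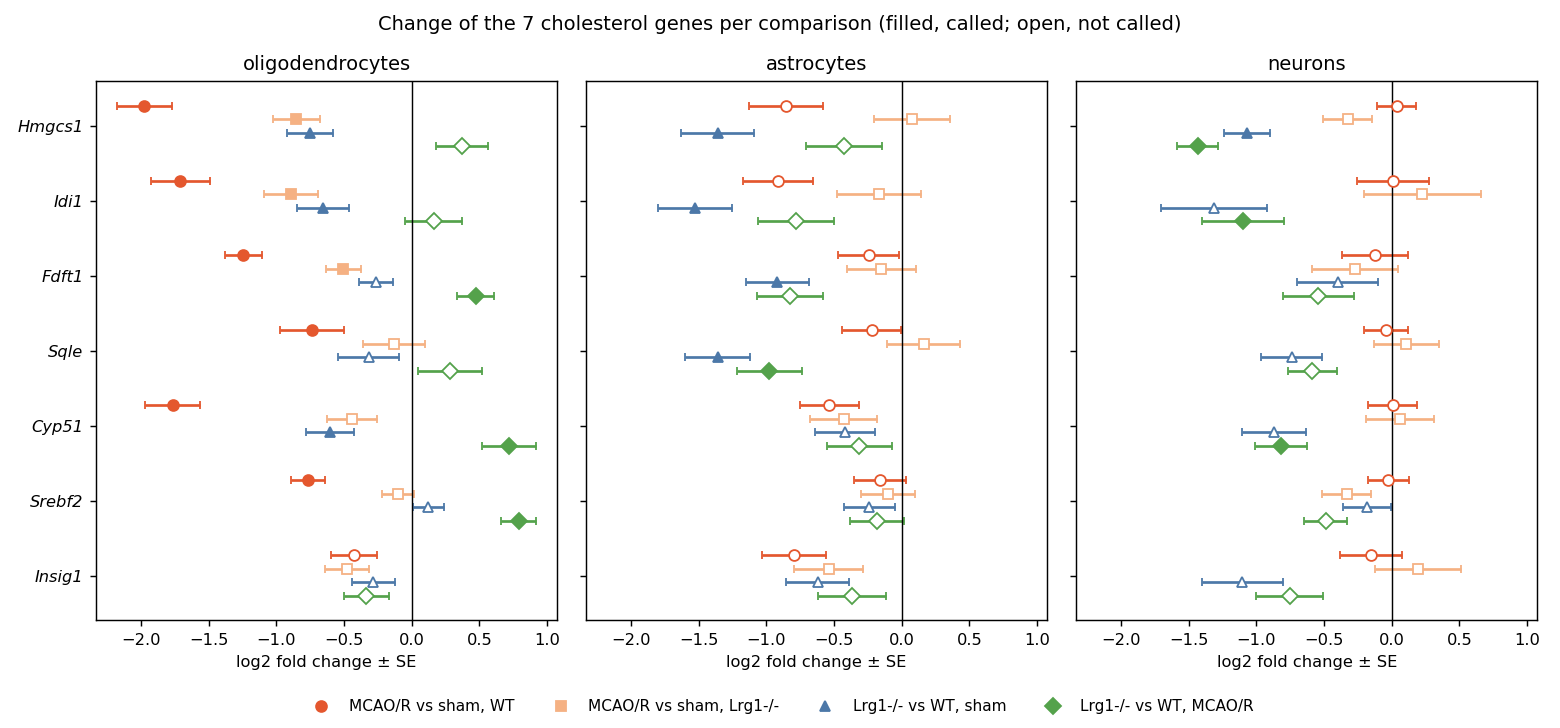
Log2 fold change ± standard error (horizontal axis) of each of the 7 genes (rows) in oligodendrocytes, astrocytes and neurons (panels) for the 4 pairwise comparisons, with filled symbols for called changes and open symbols for the others. In oligodendrocytes the wild-type response to MCAO/R reaches -1.97 for *Hmgcs1*, and in neurons the called symbols are those of the genotype comparisons.

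In astrocytes 4 of the 7 members were lower in Lrg1-/- than in wild-type mice after sham surgery, and 1 after MCAO/R. There were 2909 cells, named from *Aqp4*, *Gja1*, *Slc1a3*, *Slc1a2*, *Aldoc*, *Ntsr2* and *Gfap*. *Idi1* had 112, 109 and 112 CPM in sham + WT and 27.9, 47.5 and 43.2 CPM in sham + Lrg1-/-. *Hmgcs1* had 246, 216 and 202 and 95.1, 109.9 and 49.4 CPM in the same groups. *Sqle* had 95.95, 96.7 and 86.7 and 39.3, 42.5 and 24.7 CPM. In each of these 3 genes all Lrg1-/- libraries stood far below all WT libraries. *Fdft1* had 116, 119 and 102 CPM in sham + WT and 68.8, 64.96 and 40.2 CPM in sham + Lrg1-/-, and *Insig1* 123, 109 and 93.7 and 88.5, 59.96 and 58.7 CPM, both without overlap. *Cyp51* (72.5, 94.7 and 65.6 against 59.01, 67.5 and 46.3 CPM) and *Srebf2* (145, 143 and 115 against 103, 125 and 114 CPM) overlapped. Of all genes tested 14.1% were lower without overlap.

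The test called *Idi1* (-1.53 ± 0.28, adjusted p = 0.0115), *Sqle* (-1.36 ± 0.24, adjusted p = 0.0102), *Hmgcs1* (-1.36 ± 0.27, adjusted p = 0.0165) and *Fdft1* (-0.92 ± 0.23, adjusted p = 0.0493) lower, 4 of 7 members beside 1.42% of the 11359 genes tested in astrocytes. *Insig1* (-0.62 ± 0.23, adjusted p = 0.176), *Cyp51* (-0.42 ± 0.22, adjusted p = 0.369) and *Srebf2* (-0.24 ± 0.19, adjusted p = 0.56) did not pass. The median of the members was -0.92. No member was called without sham + Lrg1-/- replicate 1, and 2 were called without sham + WT replicate 1 or 2, while 3 or 4 were called without any other library. After thinning each cell to 1000 UMIs 1 of the 7 was called, and their median was -1.31. The genotypes also differed in the share of their cells in parts of the astrocyte cluster. Its part with the highest median depth, 9277 UMIs per cell, held 35.4 to 64.2% of the astrocytes of a sham + WT library and 10.2 to 24.2% in sham + Lrg1-/-, and 26.9 to 67.6% in MCAO/R + WT and 6.1 to 18.7% in MCAO/R + Lrg1-/-. The part with the lowest, 2367.5 UMIs, held 12.4 to 19.8% in MCAO/R + WT and 45.0 to 67.7% in MCAO/R + Lrg1-/-, while its shares overlapped after sham (17.2 to 58.8% and 38.8 to 61.1%). The part of this in the results was not tested. The astrocyte markers moved as far: 4 of the 7 were called lower with a median of -1.21, among them the astrocyte connexin *Gja1* (-1.21) and the aldolase *Aldoc* (-1.96). Their summed level was 13500 to 16200 CPM in sham + WT and 5050 to 9120 CPM in sham + Lrg1-/-. The choroid plexus genes summed to 472 to 676 CPM in the sham + WT astrocytes and to 8950 to 41000 CPM in sham + Lrg1-/-, and the haemoglobin genes to 31.2 to 43.8 against 17800 to 56000 CPM.

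After MCAO/R the genotype difference in astrocytes had the same sign for all 7 members, but 1 passed the test. *Sqle* had 84.5 and 75.6 CPM in MCAO/R + WT and 54.5, 37.4 and 31.8 CPM in MCAO/R + Lrg1-/-, without overlap (-0.98 ± 0.24, adjusted p = 0.0379), beside 2.32% of genes called lower. *Idi1* had 58.5 and 59.2 against 27.2, 49.5 and 22.7 CPM (-0.78 ± 0.28, adjusted p = 0.132), and *Fdft1* 85.3 and 104 against 64.2, 57.2 and 39.3 CPM (-0.83 ± 0.24, adjusted p = 0.0691). *Hmgcs1* had 128 and 117 against 105, 106 and 62.01 CPM (-0.42 ± 0.28, adjusted p = 0.415), and *Cyp51* 55.9 and 51.5 against 42.8, 50.6 and 34.8 CPM (-0.31 ± 0.24, adjusted p = 0.491). The groups did not overlap in any of these 5 genes, and 17.7% of all genes tested were lower without overlap in the same way. *Insig1* (58.1 and 66.4 against 35.03, 60.6 and 46.9 CPM, -0.36 ± 0.25, adjusted p = 0.438) and *Srebf2* (124 and 117 against 126, 102 and 90.7 CPM, -0.18 ± 0.20, adjusted p = 0.649) overlapped. With 1 library left out at a time the call of *Sqle* held in 3 of 11 fits, those without sham + Lrg1-/- replicate 2 or 5 or MCAO/R + Lrg1-/- replicate 1. It was lost without each other library, at adjusted p-values up to 0.129. Of the astrocyte markers 5 of 7 were lower, with a median of -1.32 beside -0.42 for the members.

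The response to MCAO/R was not called for any member in astrocytes. In wild-type mice 5 genes were lower without overlap between the groups, *Idi1* by -0.91 ± 0.26, adjusted p = 0.0781, *Hmgcs1* by -0.86 ± 0.27, adjusted p = 0.12, *Insig1* by -0.80 ± 0.23, adjusted p = 0.0925, *Cyp51* by -0.54 ± 0.22, adjusted p = 0.234 and *Sqle* by -0.22 ± 0.22, adjusted p = 0.68, with *Fdft1* (-0.24 ± 0.23, adjusted p = 0.656) and *Srebf2* (-0.16 ± 0.19, adjusted p = 0.751) overlapping. Of all genes tested 21.0% were lower without overlap between these 3 and 2 libraries. Here 3.16% of genes were called in either direction by edgeR. An unadjusted p under 0.05 was found in 4 of the 7 members, beside 1896 of the 11359 genes tested. DESeq2 called 3 of the 7 lower, beside 6.54% of genes called in either direction. Without MCAO/R + Lrg1-/- replicate 2, edgeR called 1. In Lrg1-/- mice all 7 members overlapped, from -0.54 ± 0.26, adjusted p = 0.277 for *Insig1* and -0.43 ± 0.25, adjusted p = 0.377 for *Cyp51* to 0.16 ± 0.27, adjusted p = 0.856 for *Sqle*, and 1.16% of genes were called. None of the 7 had an unadjusted p under 0.05. *Idi1* (-0.17 ± 0.31), *Fdft1* (-0.15 ± 0.26), *Srebf2* (-0.10 ± 0.20) and *Hmgcs1* (0.08 ± 0.28) lay between, with adjusted p-values of 0.804 to 0.924. The interaction called 0.0% of genes, although 803 of 11359 had an unadjusted p under 0.05. All 7 members had a positive interaction, from 0.06 ± 0.28 for *Srebf2* to 0.93 ± 0.39, adjusted p = 0.68 for *Hmgcs1*, with *Idi1* at 0.74 ± 0.40, *Sqle* at 0.38 ± 0.34, *Insig1* at 0.26 ± 0.34, *Cyp51* at 0.10 ± 0.33 and *Fdft1* at 0.09 ± 0.34. *Hmgcs1* alone had an unadjusted p under 0.05, and DESeq2 called none of the 7 in Lrg1-/- mice or in the interaction.

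**Figure D4:**
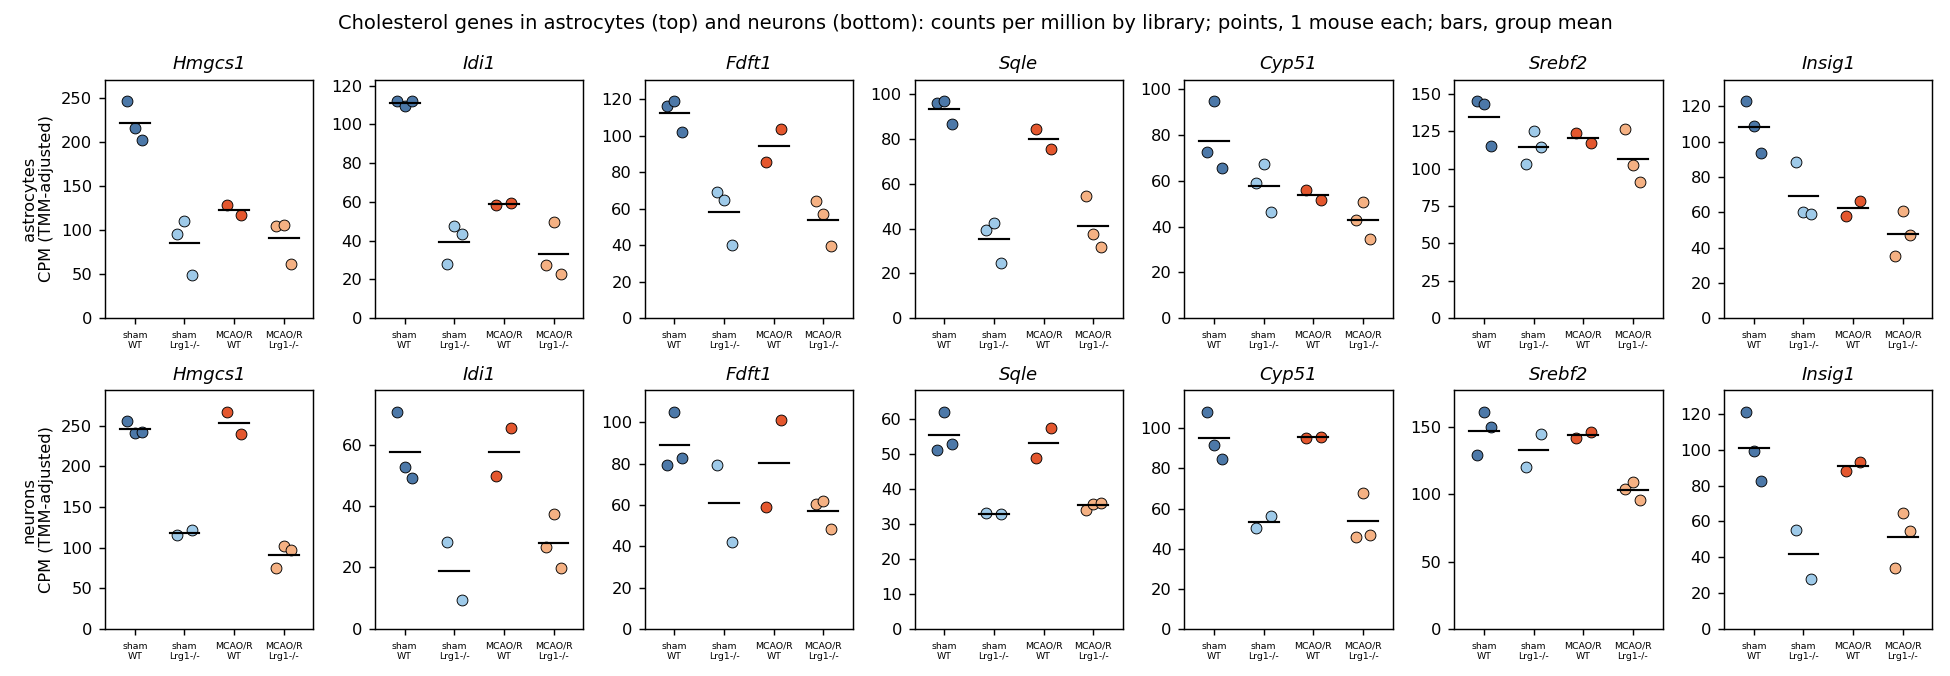
TMM-adjusted CPM of the 7 genes (columns, linear vertical axes from 0) in astrocytes (top) and neurons (bottom), 1 point per library and bars at the group mean, with 2 libraries in MCAO/R + WT and, for neurons, 2 in sham + Lrg1-/-. In neurons *Hmgcs1* lies between 239 and 267 CPM in all 5 WT libraries and between 75.0 and 122 CPM in the Lrg1-/- libraries.

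In neurons 3 of the 7 members were lower in Lrg1-/- than in wild-type mice after MCAO/R and 1 after sham surgery, and none was called with MCAO/R in wild-type mice. The 2007 cells used had *Sox11*, *Dlx6os1*, *Meis2* and *Nrxn3*, genes of young neurons, among the leading genes of most of their clusters. Sham + Lrg1-/- replicate 5 had 18 such cells, below the limit of 20, and was left out, so that sham + Lrg1-/- had n = 2. *Hmgcs1* had 256, 241 and 242 CPM in sham + WT and 267 and 239 CPM in MCAO/R + WT, and 115 and 122 CPM in sham + Lrg1-/- and 75.05, 102 and 97.2 CPM in MCAO/R + Lrg1-/-. *Idi1* had 70.6, 52.7 and 49.1 CPM in sham + WT and 49.8 and 65.4 CPM in MCAO/R + WT, and 28.2 and 9.35 CPM in sham + Lrg1-/- and 26.6, 37.5 and 19.7 CPM in MCAO/R + Lrg1-/-. *Cyp51* had 108, 91.8 and 84.9 CPM in sham + WT and 95.3 and 95.8 CPM in MCAO/R + WT, and 50.2 and 56.1 CPM in sham + Lrg1-/- and 46.0, 67.98 and 46.9 CPM in MCAO/R + Lrg1-/-. For each of these 3 genes all Lrg1-/- libraries lay below all WT libraries, whichever the surgery. *Sqle* had 51.0, 61.8 and 52.9 CPM in sham + WT and 48.7 and 57.4 CPM in MCAO/R + WT, and 33.1 and 32.7 CPM in sham + Lrg1-/- and 33.9, 35.7 and 36.02 CPM in MCAO/R + Lrg1-/-. *Insig1* had 121, 99.1 and 82.4 CPM in sham + WT and 88.02 and 93.3 CPM in MCAO/R + WT, and 55.1 and 28.1 CPM in sham + Lrg1-/- and 33.9, 64.5 and 54.9 CPM in MCAO/R + Lrg1-/-. Both genes were again lower in every Lrg1-/- library. *Srebf2* had 129, 161 and 150.2 CPM in sham + WT and 142 and 146 CPM in MCAO/R + WT, and 120.0 and 145 CPM in sham + Lrg1-/- and 104, 109 and 95.9 CPM in MCAO/R + Lrg1-/-. *Fdft1* had 79.5, 105 and 82.8 CPM in sham + WT and 59.2 and 101 CPM in MCAO/R + WT, and 79.6 and 42.1 CPM in sham + Lrg1-/- and 60.5, 61.9 and 48.6 CPM in MCAO/R + Lrg1-/-. *Srebf2* was apart between genotypes only after MCAO/R, and *Fdft1* overlapped in both comparisons. The genes lower without overlap were thus 6 of 7 after MCAO/R, beside 19.9% of all genes tested, and 5 of 7 after sham, beside 22.9%.

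After MCAO/R, *Hmgcs1* was 2.70-fold lower in Lrg1-/- neurons (-1.43 ± 0.15, adjusted p = 0.000421), *Idi1* 2.14-fold (-1.10 ± 0.30, adjusted p = 0.0442) and *Cyp51* 1.76-fold (-0.82 ± 0.20, adjusted p = 0.0256), 3 of 7 members beside 2.54% of the 12973 genes tested in neurons. *Sqle* (-0.59 ± 0.18, adjusted p = 0.0612), *Srebf2* (-0.49 ± 0.16, adjusted p = 0.0733), *Insig1* (-0.76 ± 0.25, adjusted p = 0.0769) and *Fdft1* (-0.54 ± 0.26, adjusted p = 0.221) were negative and did not pass. *Hmgcs1* was called with each of the 10 libraries left out in turn. It was the only member called without MCAO/R + WT replicate 1 or 2 or MCAO/R + Lrg1-/- replicate 5, and 2 members were called without any 1 sham + WT library or MCAO/R + Lrg1-/- replicate 1. After thinning each cell to 1000 UMIs none of the 6 members then tested was called (*Sqle* was not tested), and their median was -0.80, beside -0.755 for the 7 without thinning. In sham-operated mice *Hmgcs1* (-1.07 ± 0.17, adjusted p = 0.00831) was called lower, beside 0.779% of genes, and the call was lost without sham + Lrg1-/- replicate 1, which left 1 library in that group whose spread was taken from the others. *Cyp51* (-0.87 ± 0.24, adjusted p = 0.0743), *Insig1* (-1.10 ± 0.30, adjusted p = 0.074), *Idi1* (-1.31 ± 0.39, adjusted p = 0.0983), *Sqle* (-0.74 ± 0.23, adjusted p = 0.105), *Fdft1* (-0.40 ± 0.30, adjusted p = 0.516) and *Srebf2* (-0.18 ± 0.17, adjusted p = 0.633) did not pass. Without MCAO/R + Lrg1-/- replicate 1 the count was 2.

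Of the 8 neuronal markers 1 was called lower after MCAO/R (*Rbfox3* at -2.34), and in sham mice 1 lower (*Rbfox3* at -2.52) and 1 higher (*Syt1* at 1.53), with medians of -0.18 and 0. A list of 10 genes induced by tissue dissociation summed to 10100 to 13400 CPM in WT neurons and to 3150 to 6240 CPM in Lrg1-/- neurons, the haemoglobin genes to 9.38 to 31.1 against 13500 to 40700 CPM. The genotypes also differed in the share of their cells in parts of the neuron cluster. After MCAO/R part 17.0, with a median of 3270.0 UMIs per cell, held 18.5 to 30.4% of the neurons of a WT library and 33.5 to 52.6% in Lrg1-/-, and part 17.1, with a median of 10540.5 UMIs, 29.5 to 47.1% and 11.4 to 23.8%. After sham part 17.2 held 10.4 to 35.3% in WT and 38.2 to 57.7% in Lrg1-/-. The 7 astrocyte markers, none at 0, summed in these neurons to 424 to 517 CPM in sham + WT and 140 to 313 CPM in sham + Lrg1-/-, and to 409 to 442 CPM in MCAO/R + WT and 207 to 349 CPM in MCAO/R + Lrg1-/-, lower in Lrg1-/- without overlap. The part of these in the result was not tested. The response to MCAO/R in wild-type neurons lay between -0.15 ± 0.23 for *Insig1* and 0.04 ± 0.14 for *Hmgcs1*, with *Fdft1* at -0.13 ± 0.24, *Sqle* at -0.05 ± 0.16, *Srebf2* at -0.03 ± 0.15, *Cyp51* at 0.01 ± 0.18 and *Idi1* at 0.01 ± 0.27. None was called by edgeR or DESeq2, and 0.177% of all genes were by edgeR. In Lrg1-/- neurons none was called by edgeR or DESeq2, and 0.632% of genes were by edgeR. In both comparisons and in the interaction no member had an unadjusted p under 0.05. *Srebf2* (-0.33 ± 0.18) and *Hmgcs1* (-0.33 ± 0.18) were lower and *Sqle* (0.11 ± 0.24) higher without overlap, beside 13.1% of genes lower and 16.9% higher in that way, and *Fdft1* (-0.27 ± 0.32), *Cyp51* (0.06 ± 0.25), *Insig1* (0.19 ± 0.32) and *Idi1* (0.23 ± 0.43) overlapped. The interaction called 0.0462% of genes and no member, with values from -0.36 ± 0.23 for *Hmgcs1* and -0.31 ± 0.23 for *Srebf2* to 0.35 ± 0.39 for *Insig1*. The other 4 lay between -0.14 ± 0.40 for *Fdft1* and 0.22 ± 0.51 for *Idi1*, with *Cyp51* at 0.05 ± 0.31 and *Sqle* at 0.15 ± 0.29.

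The other 7 cell types tested gave calls of members in 5. In choroid plexus epithelial cells, which secrete cerebrospinal fluid, 6 of 7 members were lower in sham + Lrg1-/- than in sham + WT, all but *Fdft1*, beside 13% of genes. *Hmgcs1* had 152, 214 and 255 CPM in sham + WT and 87.1, 72.2 and 59.4 CPM in sham + Lrg1-/- (-1.501 ± 0.20, adjusted p = 0.000406). *Cyp51* had 28.9, 47.9 and 69.4 against 15.2, 15.1 and 17.2 CPM (-1.63 ± 0.27, adjusted p = 0.00129), and *Insig1* 65.95, 79.1 and 108 against 33.4, 35.6 and 49.3 CPM (-1.10 ± 0.21, adjusted p = 0.00273). The WT libraries spread widely in all 3. They held 227, 189 and 144 of these cells, against 3270, 1410 and 486 in sham + Lrg1-/-. *Idi1* (-1.07 ± 0.23, adjusted p = 0.00604), *Sqle* (-0.89 ± 0.22, adjusted p = 0.0106) and *Srebf2* (-0.59 ± 0.18, adjusted p = 0.0321) were lower too. The calls of *Hmgcs1*, *Cyp51*, *Insig1* and *Idi1* held with each library left out. With cells limited to mitochondrial UMIs under 10% *Hmgcs1* alone of the 6 was called, and after thinning each cell to 1000 UMIs *Hmgcs1* and *Idi1* were. *Sqle* was lost without sham + WT replicate 2 or 3, and *Srebf2* without these or sham + Lrg1-/- replicate 1 or 2. In wild-type mice the genes that fell with MCAO/R in these cells were *Insig1* (17.3 and 23.4 CPM in MCAO/R + WT, -2.10 ± 0.31, adjusted p = 0.00556), *Idi1* (55.8, 63.3 and 83.8 CPM in sham + WT and 17.3 and 24.8 CPM in MCAO/R + WT, -1.74 ± 0.34, adjusted p = 0.0219) and *Hmgcs1* (79.5 and 86.2 CPM, -1.33 ± 0.24, adjusted p = 0.0166), beside 0.605% of genes. These calls were lost without MCAO/R + WT replicate 1, and those of *Idi1* and *Hmgcs1* also without MCAO/R + WT replicate 2 or sham + WT replicate 3. None of the 3 was called after thinning to 1000 UMIs. MCAO/R + WT replicate 2 held 28 of these cells, with 16 UMIs of *Insig1*, 17 of *Idi1* and 59 of *Hmgcs1*. With mitochondrial UMIs under 10%, or at least 3000 UMIs per cell, it held 19, below the limit of 20. These 2 settings thus left 1 library in MCAO/R + WT and cannot serve as separate checks of this comparison.

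In endothelial cells *Sqle* had 7.67 and 8.08 CPM in MCAO/R + WT and 10.7, 18.1 and 13.9 CPM in MCAO/R + Lrg1-/- (0.87 ± 0.21, adjusted p = 0.00984), and *Insig1* 27.02 and 27.8 against 38.2, 40.02 and 37.5 CPM (0.49 ± 0.17, adjusted p = 0.0422), 2 of 7 higher beside 16.6% of genes. The call of *Sqle* was lost without either MCAO/R + WT library, and that of *Insig1* held in 2 of 11 fits, those without sham + Lrg1-/- replicate 1 or 5. Against sham + Lrg1-/- (7.51, 6.92 and 7.42 CPM), *Sqle* rose with MCAO/R (0.99 ± 0.19, adjusted p = 0.00614, beside 8.47% of genes higher), with each library left out. *Hmgcs1* was lower in sham + Lrg1-/- than in sham + WT (40.95, 34.7 and 34.5 against 49.7, 55.3 and 45.6 CPM, -0.45 ± 0.12, adjusted p = 0.0186, beside 13.7% lower), but not without sham + WT replicate 2 or sham + Lrg1-/- replicate 2 or 5.

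In microglial cells, the lowest expressers, *Cyp51* had 12.3, 10.8 and 10.9 CPM in sham + WT, 8.14 and 7.96 in MCAO/R + WT, 9.76, 10.5 and 8.72 in sham + Lrg1-/- and 12.1, 14.7 and 11.96 in MCAO/R + Lrg1-/-. It fell with MCAO/R in wild-type mice (-0.49 ± 0.16, adjusted p = 0.0436, beside 10.3% of genes lower), was higher in MCAO/R + Lrg1-/- than in MCAO/R + WT (0.69 ± 0.17, adjusted p = 0.00834, beside 14.2% higher), and passed the interaction test (0.91 ± 0.23, adjusted p = 0.0223, beside 8.32% higher). The fall was lost without any 1 sham + WT or MCAO/R + WT library, the genotype difference without MCAO/R + WT replicate 2, and the interaction without sham + WT replicate 1 or 2, sham + Lrg1-/- replicate 1, MCAO/R + WT replicate 2 or MCAO/R + Lrg1-/- replicate 2. *Sqle* had 3.92 and 3.79 CPM in MCAO/R + WT, 3.96, 1.94 and 3.79 in sham + Lrg1-/- and 5.79, 7.99 and 7.04 in MCAO/R + Lrg1-/-. It was higher in the last group than in MCAO/R + WT (0.88 ± 0.25, adjusted p = 0.0202, lost without either MCAO/R + WT library or MCAO/R + Lrg1-/- replicate 2) and than in sham + Lrg1-/- (1.15 ± 0.27, adjusted p = 0.00451, kept in all). *Insig1* also rose with MCAO/R in Lrg1-/- microglial cells (0.48 ± 0.18, adjusted p = 0.0479), where 20.4% of genes were called higher, and held in 4 of 11 fits, being lost without any 1 sham + WT library, sham + Lrg1-/- replicate 1 or 2, or MCAO/R + Lrg1-/- replicate 2 or 5.

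In pericytes, the contractile cells of capillaries, *Hmgcs1* (101, 69.3 and 75.5 CPM in sham + WT against 33.05, 25.3 and 20.3 CPM in sham + Lrg1-/-, -1.55 ± 0.37, adjusted p = 0.00874) and *Cyp51* (29.3, 28.1 and 29.4 against 6.88, 13.5 and 15.2 CPM, -1.43 ± 0.45, adjusted p = 0.0352) were lower in Lrg1-/- mice after sham surgery, beside 10.1% of genes. The sham + Lrg1-/- libraries held 68, 52 and 23 pericytes, with 24, 15 and 4 UMIs of *Hmgcs1* and 5, 8 and 3 of *Cyp51*. The call of *Hmgcs1* was lost without sham + Lrg1-/- replicate 2, and that of *Cyp51* without any 1 sham library other than sham + Lrg1-/- replicate 5. In vascular smooth muscle cells *Idi1* was lower in the same comparison (49.1, 51.4 and 44.2 against 21.7, 31.4 and 26.6 CPM, -0.86 ± 0.26, adjusted p = 0.0435, beside 6.69%), and *Fdft1* was higher with MCAO/R in wild-type mice (13.6, 15.4 and 17.1 CPM in sham + WT against 48.7 and 28.2 CPM in MCAO/R + WT, 1.31 ± 0.28, adjusted p = 0.048, beside 0.719%). With 1 library left out at a time *Idi1* was called in 3 of 11 fits, those without an MCAO/R + Lrg1-/- library, and *Fdft1* in 2 of 11, those without sham + Lrg1-/- replicate 5 or MCAO/R + Lrg1-/- replicate 1. In macrophages and ciliated ependymal cells edgeR called no member in any of the 5 comparisons, with 3.33 to 35.5% and 0.0 to 6.85% of genes called. At an unadjusted p under 0.05 there was none in macrophages, while ciliated ependymal cells had 5 for MCAO/R in Lrg1-/- (all but *Idi1* and *Insig1*), 1 for MCAO/R in WT (*Sqle*) and 2 for genotype in sham mice (*Hmgcs1* and *Sqle*). Of all 13394 genes tested in ciliated ependymal cells, 2510, 1327 and 3133 had such a p in the same comparisons, in that order. Over the 7 cell types the member values that did not pass lay between -0.99 and 0.72 for genotype in sham mice and between -0.71 and 0.70 for genotype after MCAO/R. For MCAO/R against sham they lay between -1.30 and 0.92 in WT and between -0.48 and 1.57 in Lrg1-/-, and for the interaction between -1.22 and 1.82. After thinning to 1000 UMIs no member was called in microglial cells, pericytes (5 tested) or vascular smooth muscle cells (6 tested). In endothelial cells 2 were then called for genotype after MCAO/R and 1 for MCAO/R in WT. *Sqle* was not among these 2, as its call for genotype after MCAO/R was lost with thinning. As in the 3 main types, the haemoglobin genes were higher in every Lrg1-/- library, from 1790 CPM in pericytes to 116000 CPM in vascular smooth muscle cells, against at most 1650 CPM in the WT libraries.

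Most synthesis enzymes fell with MCAO/R in oligodendrocytes of wild-type mice. Of 20 synthesis enzymes, a list that includes 5 of the members, 15 fell with MCAO/R in wild-type mice, beside 11.3% of all genes, and none rose, with a median of -0.81 against -0.005 over all genes tested. Beside the members these included *Dhcr7*, a reductase of the late steps (-1.75 ± 0.22, adjusted p = 0.000104), the farnesyl diphosphate synthase *Fdps* (-1.70 ± 0.14, adjusted p = 6.58e-06) and the sterol methyl oxidase *Msmo1* (-1.48 ± 0.14, adjusted p = 1.26e-05). In Lrg1-/- mice 7 of 20 fell with MCAO/R, beside 7.33% of all genes, with a median of -0.47, among them the dehydrogenase *Nsdhl* (-0.60 ± 0.17, adjusted p = 0.037) and the desaturase *Sc5d* (-0.55 ± 0.12, adjusted p = 0.012). The interaction called 5 of 20 higher, beside 0.747% of all genes, and none lower, with a median of 0.44. These were *Cyp51* and *Hmgcs1* and, outside the members, *Fdps* (1.24 ± 0.19, adjusted p = 0.00963), *Msmo1* (1.12 ± 0.18, adjusted p = 0.0121) and the sterol isomerase *Ebp* (0.93 ± 0.14, adjusted p = 0.0104). After thinning to 1000 UMIs at most 1 of the 20 was called in the interaction, beside 0.292% of all genes called in either direction. Without the filter on low counts or with cluster 6 alone more were, beside 3.74% and 5.55%. In sham mice 9 of 20 were lower in Lrg1-/- oligodendrocytes, beside 5.42% of all genes, among them *Fdps* (-0.70 ± 0.13, adjusted p = 0.00611) and *Msmo1* (-0.65 ± 0.12, adjusted p = 0.00683). In that comparison at most 1 was lower with the replicate number as a block, 4 with mitochondrial UMIs under 10% and 5 after thinning to 1000 UMIs. Under these settings 2.37%, 8.64% and 3.07% of all genes were called in either direction. Without the filter on low counts more of the 20 were lower, beside 11.9%. After MCAO/R, where 14.2% of all genes were higher and 14.4% lower, 5 of 20 were higher in Lrg1-/-, *Fdft1*, *Cyp51*, *Fdps*, *Msmo1* and *Ebp*, and 1 was lower, the reductase *Hsd17b7* (-0.87 ± 0.24, adjusted p = 0.0178). After thinning to 1000 UMIs none of the 20 was higher in this comparison and at most 1 lower, beside 17.7% of all genes called in either direction. With cluster 6 alone more were higher, beside 25%.

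**Figure D5:**
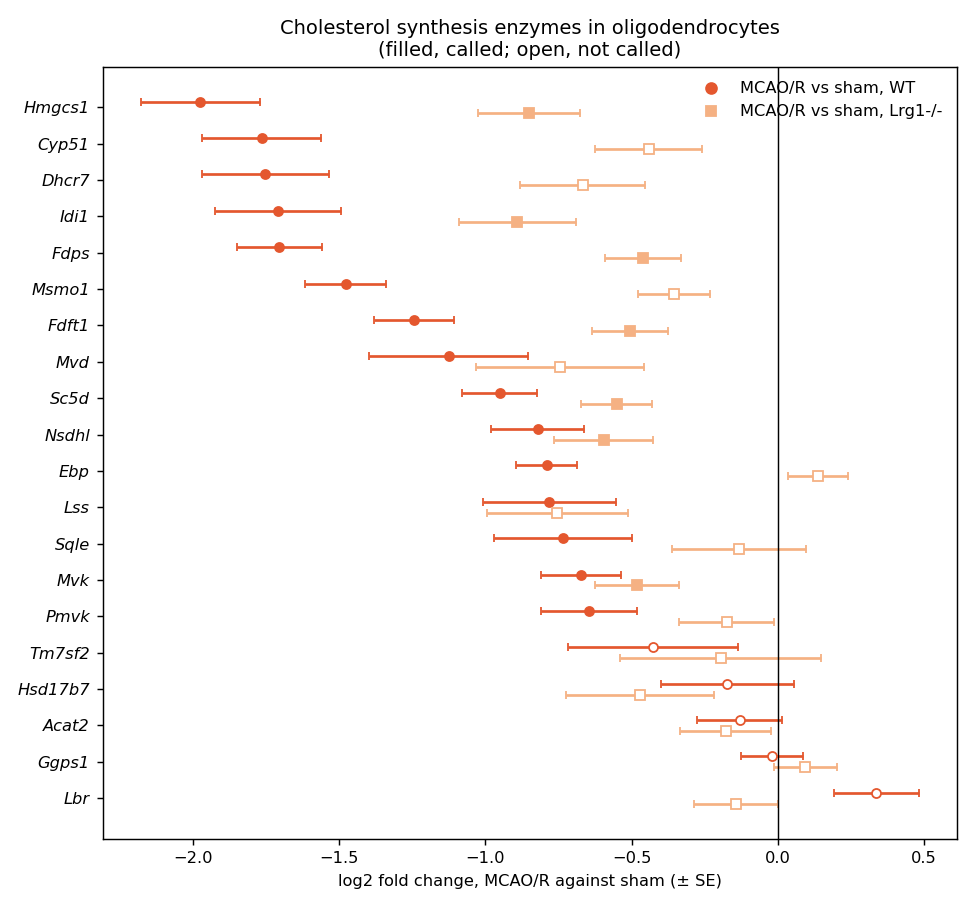
Log2 fold change ± standard error of MCAO/R against sham (horizontal axis) for 20 cholesterol synthesis enzymes (rows) in oligodendrocytes, for WT mice (circles) and Lrg1-/- mice (squares), filled where called. In WT mice 15 of 20 are called lower, and in Lrg1-/- mice 7 of 20.

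Uptake, storage and fatty acid genes did not follow the enzymes in full. Of all genes 11.3% fell with MCAO/R in WT and 7.33% in Lrg1-/-, and between genotypes 14.2% were higher and 14.4% lower in Lrg1-/- after MCAO/R and 5.42% lower after sham. Of 8 genes of uptake and intracellular transport, 3 fell with MCAO/R in WT (*Vldlr*, *Npc1* and *Stard4*), 2 fell in Lrg1-/- (*Vldlr* and *Npc1*), none was called in the interaction, and 1 was higher in Lrg1-/- after MCAO/R, the lipoprotein receptor *Lrp1* (1.82 ± 0.35, adjusted p = 0.00325). In sham mice, where 6.53% of all genes were called higher in Lrg1-/-, 1 was higher (*Lrp8*, 1.33 ± 0.31, adjusted p = 0.0181) and 1 lower (*Vldlr*, -0.50 ± 0.14, adjusted p = 0.039). Of the 7 genes that regulate SREBPs, *Srebf2* and *Insig1* among them, 1 fell with MCAO/R in WT (*Srebf2*), none changed by the test in Lrg1-/- or in the interaction, 2 were higher in Lrg1-/- after MCAO/R (*Srebf2* and *Srebf1*, 0.57 ± 0.20, adjusted p = 0.0457) and *Insig2*, the second retention factor, was lower (-0.40 ± 0.12, adjusted p = 0.0327), as it was in sham mice (-0.57 ± 0.13, adjusted p = 0.015).

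In oligodendrocytes 3 of 9 genes of efflux and storage rose with MCAO/R, in both genotypes, beside 10.3% of all genes called higher in WT and 5.52% in Lrg1-/-. *Abca1*, the sterol exporter, had 57.3, 66.5 and 55.0 CPM in sham + WT and 130.5 and 147 CPM in MCAO/R + WT (1.22 ± 0.17, adjusted p = 0.000205), and 54.95, 58.2 and 60.02 CPM in sham + Lrg1-/- and 109.7, 93.5 and 150.4 CPM in MCAO/R + Lrg1-/- (1.04 ± 0.17, adjusted p = 0.00242). The interaction was -0.17 ± 0.24, adjusted p = 0.782, and the genotypes gave -0.23 ± 0.17, adjusted p = 0.319 after MCAO/R and -0.05 ± 0.17, adjusted p = 0.87 after sham. The other two of the 3 were *Ch25h* and *Plin2*, and none of the 9 fell. *Ch25h*, the 25-hydroxylase of cholesterol, rose in WT (3.35 ± 0.58, adjusted p = 0.00129) and in Lrg1-/- (2.69 ± 0.63, adjusted p = 0.0159) from 2 to 5 UMIs in each sham library. *Plin2*, a coat protein of lipid droplets, rose by 1.55 ± 0.40, adjusted p = 0.0137 in WT and by 2.86 ± 0.45, adjusted p = 0.00218 in Lrg1-/-. After MCAO/R, where 14.2% of all genes were higher and 14.4% lower, 4 of the 9 were higher in Lrg1-/-, *Plin2* (1.78 ± 0.40, adjusted p = 0.0068), *Ch25h* (1.504 ± 0.49, adjusted p = 0.0359), the esterifying *Soat1* (0.54 ± 0.15, adjusted p = 0.0205) and *Apoe*, and 1 was lower, the 24-hydroxylase *Cyp46a1* (-1.14 ± 0.38, adjusted p = 0.0381). *Apoe*, the main cholesterol carrier of the brain, had 622, 678 and 636 CPM in sham + WT, 1217, 1657 and 2232 in sham + Lrg1-/-, 533 and 731 in MCAO/R + WT and 1023, 808 and 1407 in MCAO/R + Lrg1-/-. It was higher in Lrg1-/- after sham (1.40 ± 0.23, adjusted p = 0.00422) and after MCAO/R (0.77 ± 0.26, adjusted p = 0.0433), and MCAO/R gave -0.03 ± 0.26, adjusted p = 0.957 in WT, -0.65 ± 0.23, adjusted p = 0.0822 in Lrg1-/- and an interaction of -0.62 ± 0.34, adjusted p = 0.402. Markers of other cells moved with the genotype in these oligodendrocytes: 6 microglial markers summed to 299 to 616 CPM in sham + WT and 639 to 996 CPM in sham + Lrg1-/-, and 6 choroid plexus markers to 277 to 917 against 6470 to 17500 CPM after sham and 86.2 to 287 against 3790 to 10800 CPM after MCAO/R. No marker of either list was at 0, and their part in the result was not tested. Of 7 genes of fatty acid synthesis, *Scd1*, *Scd2* and *Elovl6* fell and *Acaca* rose with MCAO/R in each genotype, beside 11.3% of all genes lower in WT and 7.33% in Lrg1-/-. The elongase *Elovl6* fell in WT (-1.97 ± 0.14, adjusted p = 2.07e-06) and passed the interaction test (1.30 ± 0.18, adjusted p = 0.00506), the desaturase *Scd1* fell in Lrg1-/- (-0.91 ± 0.17, adjusted p = 0.00451), and the acetyl-CoA carboxylase *Acaca* rose in WT (1.98 ± 0.20, adjusted p = 2.39e-05) and in Lrg1-/- (1.13 ± 0.19, adjusted p = 0.00313). In sham mice *Elovl6* was lower in Lrg1-/- (-0.62 ± 0.12, adjusted p = 0.00735), and after MCAO/R *Elovl6* (0.69 ± 0.13, adjusted p = 0.00293) and the fatty acid synthase *Fasn* (0.43 ± 0.11, adjusted p = 0.0139) were higher and *Acaca* lower (-1.04 ± 0.20, adjusted p = 0.00295).

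In astrocytes 7 of the 20 enzymes were lower in sham + Lrg1-/- than in sham + WT and none higher (median -0.67), beside 1.42% of all genes lower, among them *Msmo1* (-1.62 ± 0.33, adjusted p = 0.0206), *Dhcr7* (-1.41 ± 0.28, adjusted p = 0.0176) and *Sc5d* (-1.21 ± 0.23, adjusted p = 0.0133). After MCAO/R 2 of 20 were lower (median -0.46), beside 2.32% of all genes, *Sqle* and *Sc5d* (-1.17 ± 0.23, adjusted p = 0.0162). With MCAO/R in wild-type mice 3 of 20 fell, beside 1.3% of all genes, none of them a member: *Dhcr7* (-1.35 ± 0.26, adjusted p = 0.0158), the decarboxylase *Mvd* (-1.17 ± 0.24, adjusted p = 0.0216) and *Fdps* (-0.87 ± 0.21, adjusted p = 0.0405). None of the 20 enzymes was called in Lrg1-/- astrocytes with MCAO/R or in the interaction. Of the other 4 lists *Plin2* alone was called, higher in Lrg1-/- after MCAO/R (1.40 ± 0.31, adjusted p = 0.0266) and with MCAO/R in Lrg1-/- (2.05 ± 0.35, adjusted p = 0.0231), beside 2.58% and 0.643% of all genes called higher. The microglial markers summed to 279 to 405 CPM in MCAO/R + WT astrocytes and 580 to 1550 CPM in MCAO/R + Lrg1-/-.

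*Apoe*, made in quantity by astrocytes, had 5633, 8717 and 9214 CPM in sham + WT, 4608, 4330.0 and 3819 in sham + Lrg1-/-, 6499 and 8950.0 in MCAO/R + WT and 2645, 4255 and 3672 in MCAO/R + Lrg1-/-. Its genotype differences were negative without overlap and missed the threshold after sham (-0.89 ± 0.28, adjusted p = 0.106) and after MCAO/R (-1.13 ± 0.30, adjusted p = 0.0524). Of all genes tested 14.1% and 17.7% were lower without overlap in these comparisons. The astrocyte markers had medians of -1.21 and -1.32 there, and their part in the result was not tested. MCAO/R gave -0.02 ± 0.31 in WT and -0.27 ± 0.28 in Lrg1-/-, with an interaction of -0.25 ± 0.41. *Abca1* lay between 188 and 297 CPM, with -0.30 ± 0.21 and -0.16 ± 0.19 between genotypes, 0.17 ± 0.20 and 0.03 ± 0.20 with MCAO/R and an interaction of -0.14 ± 0.28, none of which passed.

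In neurons 4 of the 20 enzymes were lower in Lrg1-/- after MCAO/R (median -0.57), beside 2.54% of all genes, the members *Hmgcs1*, *Idi1* and *Cyp51* and *Msmo1* (-1.27 ± 0.24, adjusted p = 0.00876). After sham 3 were lower (median -0.54), beside 0.779% of all genes, *Hmgcs1*, *Msmo1* (-1.38 ± 0.29, adjusted p = 0.029) and *Sc5d* (-1.36 ± 0.28, adjusted p = 0.0258). With MCAO/R none of the 20 was called in either genotype or in the interaction. Some genes of uptake, efflux and storage went the other way between genotypes after MCAO/R. The receptor *Lrp1* (1.16 ± 0.18, adjusted p = 0.00316), the lone call among 8 uptake genes, the lipid droplet protein *Plin2* (1.06 ± 0.25, adjusted p = 0.0247) and *Apoe* (1.79 ± 0.34, adjusted p = 0.00857) were higher in Lrg1-/-, beside 5.81% of all genes. Markers of myeloid cells moved with them: 6 microglial markers summed to 347 to 376 CPM in MCAO/R + WT neurons and 826 to 1870 CPM in MCAO/R + Lrg1-/-, and 7 macrophage markers to 24.6 to 27.9 against 138 to 445 CPM. No marker of either list was at 0, and their part in the result was not tested. *Apoe* had 187 and 303 CPM in MCAO/R + WT and 857, 745 and 954 CPM in MCAO/R + Lrg1-/-, beside 359, 158 and 190.2 CPM in sham + WT and 634 and 416 CPM in sham + Lrg1-/- (1.18 ± 0.33, adjusted p = 0.0759). Its values with MCAO/R were 0.06 ± 0.32 in WT and 0.67 ± 0.33 in Lrg1-/-, with an interaction of 0.61 ± 0.46. *Plin2* was also called higher with MCAO/R in Lrg1-/- (2.47 ± 0.37, adjusted p = 0.0191), beside 0.578% of genes. *Abca1* (0.66 ± 0.22 after MCAO/R and -0.52 ± 0.27 after sham between genotypes, -0.08 ± 0.22 in WT and 1.09 ± 0.27 in Lrg1-/- with MCAO/R, 1.18 ± 0.35 for the interaction) was not called.

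Across all libraries and cell types the 7 genes moved together to a moderate degree. Over 159 sums of a library and a cell type, in 18 cell types, each gene was taken as log2(CPM + 1) and centred on its mean in each cell type. Pearson's r between members ranged from 0.119 for *Insig1* with *Fdft1* to 0.588 for *Insig1* with *Cyp51*. Among 10608 genes compared with the mean of the members, *Msmo1* (0.718), *Sc5d* (0.615) and the fatty acid elongase *Elovl6* (0.5455) were the most alike of the genes reported here outside the set, and 6 of the 20 highest of these belonged to the 5 pathway lists. Outside the lists the 10 most alike were *Strap* (0.540), *Wdr41* (0.511), *Tst* (0.493), *Gramd4* (0.481), *Foxp4* (0.475), *Prkar1a* (0.469), *Fads2* (0.458), *Tmem184c* (0.457), *Ccdc66* (0.453) and *Tmx3* (0.450). These sums share mice and depth, and the r values are given as a description.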

How the data were processed

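Single-cell RNA sequencing had been performed on right brain tissue of 11 mice, 1 library per mouse, and GEO's labels gave each library its group. The authors' files held UMI counts per gene and barcode, as deposited, made with Cell Ranger (7.0.1 per the file headers) on mm10, with STAR named in the submitters' processing notes. The strand setting of the counting was not given in the sources used here. Barcodes needed more than 500 genes, more than 1000 UMIs and a mitochondrial share under 25% to be kept. The 6% of each library with the highest score against simulated doublets were removed. Cells were clustered on 2000 variable genes and 15 principal components with 3 neighbours per library (Leiden, resolution 1, then parts at resolution 0.3), with the genes of the pathway lists kept out of the clustering, since the deposited files used here held no cell annotation. A cluster was named where at least 3 markers of a type passed a 2-fold excess, and 29246 cells stayed unnamed. Names are therefore rebuilt and may differ from those of the study.

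UMIs were summed per library and cell type (at least 20 cells), filtered by filterByExpr, scaled by TMM and tested with edgeR 4.0.16 in R 4.3.3 (quasi-likelihood, 4 groups in 1 fit, Benjamini-Hochberg adjustment over all genes of the type). The study's own tests were made over cells and were not repeated. Scripts were tested on simulated data, for genotype after MCAO/R. Of genes given a log2 change of 1 there, 25% were called in astrocytes, 66% in neurons and 93% in oligodendrocytes. Of those given a change of 2, 97%, 99% and 100% were. Counts of calls are thus not on an equal footing between these cell types. Alternatives were DESeq2 1.42.0, no filter on low counts, under 10% mitochondrial UMIs, cells thinned to 1000 UMIs, doublets kept, haemoglobin and mitochondrial genes left out, resolution 0.3, the replicate number as a block, each library left out and Bonferroni adjustment, and, chosen after seeing the data, cluster 6 alone and cells of at least 3000 UMIs. The members and gene lists were chosen with earlier results of these data known. Named were all 7 members in astrocytes, oligodendrocytes and neurons, called members elsewhere, *Apoe* and *Abca1*, up to 4 further called list genes of the largest change per comparison, and the 10 genes most like the members. Other list genes that complete a count of 5 or fewer (*Vldlr*, *Npc1*, *Stard4*, *Srebf1*, *Insig2*, *Soat1*, *Hsd17b7*, *Scd2* and *Fasn*, and *Plin2* or *Elovl6* where they rank lower) were named after their values were seen. A few genes of the lists, the markers and this rule are not reported here, and the counts and medians over lists, and over the oligodendrocyte markers, leave them out. No column of samples outside the labels was present. Libraries held 37159497 to 171813031 UMIs, and oligodendrocytes, astrocytes and neurons had 139 to 3659, 54 to 714 and 26 to 471 cells per library used, and the libraries with few cells have the lower precision.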

Additional observations from a re-analysis of the deposited data

Results flagged for a closer look

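In 3 results the response to MCAO/R differed between the genotypes by a test of the difference itself, the interaction of genotype and surgery in edgeR's quasi-likelihood fit. In oligodendrocytes *Cyp51* had an interaction of 1.322 (log2, adjusted p = 0.0291) and *Hmgcs1* one of 1.122 (adjusted p = 0.0483), so that the fall seen in wild-type mice was smaller in Lrg1-/- mice. In microglial cells *Cyp51* had an interaction of 0.91 (adjusted p = 0.0223), with a fall in wild-type mice. Its change with MCAO/R in Lrg1-/- mice, 0.416, was not called. The interaction called 0.747% of all genes higher in oligodendrocytes and 8.32% in microglial cells. The call of 1 of 7 members in microglial cells is therefore near the share over all genes. With 1 of the 11 libraries left out in turn, the call of *Hmgcs1* was lost in 9 of 11 fits, that of *Cyp51* in oligodendrocytes in 7 and that of *Cyp51* in microglial cells in 5, and the sham groups of the genotypes differed before the injury for both genes in oligodendrocytes. No group had the 4 samples needed for a test of single outlying libraries.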

How the results depend on the processing

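Of 49 calls of members in the 10 cell types, 13 held with each library left out in turn, and no member changed direction past the threshold under any alternative. Counts of the 7 members called are given here by comparison where they moved by over 1.5 times, first in astrocytes, neurons and oligodendrocytes. For these 3 cell types the percentages in brackets are the share of all genes called in either direction under the same setting, which moved too. For the other cell types that share is not given here. For genotype after MCAO/R in astrocytes (1 as reported, 4.89%) Bonferroni adjustment (0.141%), thinning to 1000 UMIs (4.42%) and the replicate block (2.41%) gave 0. DESeq2 gave 2 (9.53%) and no filter on low counts gave 3 (7.13%). In neurons (3, 8.36%) Bonferroni adjustment (0.324%), resolution 0.3 (6.41%) and the replicate block (4.85%) gave 1. Thinning gave 0 of 6 tested (3.34%) and keeping doublets 5 (9.48%). In oligodendrocytes (3, 28.7%) Bonferroni adjustment gave 0 (0.966%), thinning 1 (17.7%) and cluster 6 alone 6 (25%). For genotype after sham in astrocytes (4, 3.44%) Bonferroni adjustment gave 0 (0.247%), thinning 1 (1.04%) and the replicate block 2 (1.19%). In neurons (1, 2.88%) Bonferroni adjustment (0.177%) and thinning (1.68%, of 6 members tested) gave 0. DESeq2 gave 2 (4.19%), resolution 0.3 gave 3 (2.75%), and doublets kept (3.95%) or no filter (5.09%) gave 4. In oligodendrocytes (3, 11.9%) Bonferroni adjustment (0.307%) and the replicate block (2.37%) gave 0 and the 10% mitochondrial limit 1 (8.64%). For MCAO/R in wild-type mice, DESeq2 called 3 (6.54%) and no filter 2 (5.65%) in astrocytes (0, 3.16%), and Bonferroni adjustment 3 (2.92%) in oligodendrocytes (6, 21.6%). For MCAO/R in Lrg1-/- oligodendrocytes (3, 12.8%) Bonferroni adjustment gave 0 (0.527%). For the interaction in oligodendrocytes (2, 1.87%) Bonferroni adjustment (0.0565%) and thinning (0.292%) gave 0. The 10% mitochondrial limit (1.56%), haemoglobin and mitochondrial genes left out (1.98%), and the replicate block (1.09%) gave 1. DESeq2 (5.19%) and doublets kept (3.46%) gave 4, and no filter (3.74%) and cluster 6 alone (5.55%) gave 5. In choroid plexus epithelial cells the count for genotype after sham (6) was 1 with the 10% mitochondrial limit and Bonferroni adjustment, 2 with thinning and 3 with the block. For MCAO/R in WT (3) it was 0 with thinning and Bonferroni adjustment, 5 with DESeq2 and 6 with no filter, and for the interaction (0) 2 with DESeq2 and 4 with no filter. The 10% mitochondrial and 3000 UMI limits left 1 library of these cells in MCAO/R + WT, so no count is given for them there. In endothelial cells genotype after MCAO/R (2) gave 1 with the block, resolution 0.3 and the 3000 UMI limit and 0 with Bonferroni adjustment. Genotype after sham (1) gave 0 with the block, thinning and Bonferroni adjustment, MCAO/R in Lrg1-/- (1) 0 with the last 2, and MCAO/R in WT (0) 1 with thinning. In microglial cells thinning and Bonferroni adjustment gave 0 in each of the 4 comparisons with a call. There genotype after MCAO/R (2) gave 1 with the block and resolution 0.3, and the interaction (1) 0 with the block. MCAO/R in WT (1) gave 0 with no filter and the block, and 2 with DESeq2, doublets kept and the 3000 UMI limit. MCAO/R in Lrg1-/- (2) gave 1 with DESeq2, no filter, haemoglobin and mitochondrial genes left out, the block, doublets kept and resolution 0.3. In pericytes genotype after sham (2) gave 1 with the block and 0 with thinning, resolution 0.3 and Bonferroni adjustment, MCAO/R in Lrg1-/- (0) 2 with no filter and 1 with DESeq2, the block and the 3000 UMI limit, and the interaction (0) 2 with no filter and 1 with the block. In vascular smooth muscle cells the block, thinning, doublets kept and Bonferroni adjustment gave 0 for genotype after sham (1) and MCAO/R in WT (1). The 10% and 3000 UMI limits also gave 0 for the latter, DESeq2 and resolution 0.3 gave 2 for the former, and resolution 0.3 gave 1 for genotype after MCAO/R and MCAO/R in Lrg1-/- (0 each). In ciliated ependymal cells MCAO/R in Lrg1-/- (0) gave 2 with no filter and resolution 0.3, and genotype after sham (0) 1 with these and DESeq2. The cause of these moves was not tested, other than that Bonferroni adjustment is stricter by its construction and thinning discards UMIs.

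With 1 library left out at a time, counts of members called in oligodendrocytes ranged from 5 to 6 for MCAO/R in WT, 0 to 4 for MCAO/R in Lrg1-/-, 1 to 3 for genotype after MCAO/R, 0 to 3 after sham and 0 to 5 for the interaction. In astrocytes they ranged from 0 to 4 for genotype after sham, 0 to 2 after MCAO/R and 0 to 1 for MCAO/R in WT, and in neurons from 1 to 3 for genotype after MCAO/R and 0 to 2 after sham. A group left with 1 library was assumed to vary like the others. Same-numbered libraries correlated over 0.1 in their deviations in 3 of 13 pairs in astrocytes, 3 of 12 in neurons and 2 of 13 in oligodendrocytes. Libraries of different numbers did so in 6 of 32, 2 of 25 and 5 of 32 pairs. With groups of 2 or 3 libraries this cannot decide whether the replicate numbers mark a pairing, and the block is given for its counts. Depth limits astrocytes (54 to 164 cells in the Lrg1-/- libraries, 212 to 714 in WT) and single libraries with few neurons (sham + Lrg1-/- replicate 2 with 26, MCAO/R + Lrg1-/- replicate 1 with 44), pericytes (sham + Lrg1-/- replicate 5 with 23, MCAO/R + Lrg1-/- replicate 1 with 34) or choroid plexus epithelial cells (MCAO/R + WT replicate 2 with 28), and low expressers such as *Sqle* in microglial cells.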
